A study of Drosophila melanogaster with 3 samples.

Results

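The genes described here encode the factors that start, extend and end protein synthesis in the cytosol, and the aminoacyl-tRNA synthetases of the cytosol and of mitochondria, in the midgut of Drosophila melanogaster larvae that lack the ecdysone receptor EcR. Members were chosen by name from the platform's probe annotation: symbols that begin with eIF, eEF or eRF and a digit, and symbols of the form of an amino acid followed by RS, with the ending -m for the mitochondrial enzymes. This gave 68 genes on 76 probes, of which 67 had a value on all 3 arrays, out of 9756 named genes with such a value. The tested genes were 36 initiation factors, 6 elongation and release factors, 13 cytosolic synthetases and 12 mitochondrial synthetases. GluProRS, the bifunctional enzyme for glutamate and proline, had values on 2 arrays only (0.060 on replicate 3 and -0.18 on replicate 4) and was not tested. A further 18 genes of the gene table fit the name pattern but had no probe with a single symbol in the annotation used here, among them eEF2, eEF1alpha1, eIF2alpha, eIF2gamma, AspRS and MetRS, and they were not analysed here.

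Translation starts when eIF2 brings the initiator tRNA to the small ribosomal subunit, eIF3 holds that subunit open for scanning, and the cap-binding complex eIF4F recruits the mRNA. The eEF1 complex then delivers charged tRNAs to the ribosome, and the release factors read the stop codon. Each synthetase joins one amino acid to its tRNAs, and mitochondria translate their own few mRNAs with a separate set of factors and mostly separate synthetases, all made from nuclear genes. The larval midgut is a large digestive tissue with a high output of secreted enzymes, and it is replaced at metamorphosis under control of ecdysone.

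The mutants carried the alleles EcRM554fs and EcRV559fs, which remove the function of all EcR isoforms, and were brought through earlier larval life by the heat shock inducible transgene hs-EcR-B230.1, which is not restricted to one tissue. Their midguts were collected at stage 2a, the point late in the last larval instar where development arrests. Each of the 3 mutant RNA samples, named replicates 3, 4 and 6 after their titles, was labelled with Cy5 and hybridised with 1 shared Cy3 reference, a mixture of Canton S wild-type midgut RNA from several stages. The sources used here give neither age in hours, nor sex, nor the number of guts in a sample. Genotype, stage, strain and heat shock history therefore differ together between the channels and cannot be told apart, and a dye effect lies in every mean because no array had the dyes swapped.

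All values below are log2 ratios of mutant over reference with each array's median set to 0, averaged over the probes of a gene. That direction is likely and not stated: the labels put the mutant in the first channel, while the value table does not name the numerator, and the opposite direction would turn every sign. The arrays held values for 14069 to 18991 probes, and the median SD between arrays was 0.104 over all 13026 features and 0.0994 over the 67 members. EcR itself stood at 1.72, 0.57 and 2.19 on replicates 3, 4 and 6, and its probe does not check the loss of function, since frameshift alleles and the transgene can both give RNA. The arrays give ratios without levels, so the presence of midgut markers in the mutant RNA could not be read from them. In whole tissue, fewer cells of a type and less RNA per cell cannot be told apart.

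Over the whole class, 24 of 67 genes passed the test (limma, Benjamini-Hochberg adjusted p under 0.05 over all 13026 features), 17 higher and 7 lower in the mutant. The share called, 35.8%, was close to the 37.0% called among all features. The split ran the other way from that of all features: 25.4% of the members were higher against 13.4% of all features, and 10.4% were lower against 23.7%. Changes were small, since 5 of 67 members were called and changed at least 1.5-fold, against 13.6% of all features. The median over members was 0.018, beside 0.0081 over all features, and it crossed 0 on receptor centring (-0.082) and without replicate 6 (-0.00095). Without replicate 3 the members called higher fell to 8, and without replicate 6 to 12, while the members called lower numbered 6 in both cases. Calls among all features fell as well. Without replicate 3, 6.05% of all features were higher and 15.3% lower, and without replicate 6, 10.4% were higher and 20.3% lower. Receptor centring, in which 0 is set at the median of the probes for odorant, gustatory and ionotropic receptors on each array, gave 11 members higher and 21 lower. All features then split into 961 higher and 4197 lower, against 1743 and 3081 with array medians at 0 and 3038 and 2729 on the values as deposited.

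**Figure D1:**
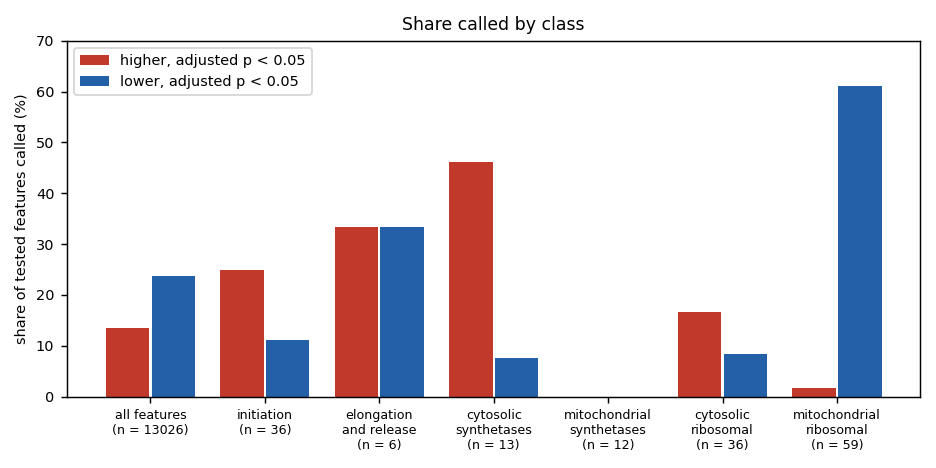
Percentage of tested features called higher (red) and lower (blue) in the mutant at an adjusted p under 0.05, for all features, the 4 classes of translation genes and 2 lists of ribosomal proteins, with the number tested under each name. Of the cytosolic synthetases 46.2% are higher (1 of 13 without replicate 3), mitochondrial synthetases have no call, and mitochondrial ribosomal proteins are mostly lower (61.0%).

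Of the 36 tested initiation factors, 16 encode eIF3. This complex is the largest initiation factor and binds the small ribosomal subunit. Its 16 tested genes had a median of 0.15: 6 passed as higher, 1 passed as lower, and 9 missed the threshold. The share called, 43.8%, lay near the 37.0% of all features. In human cells an octamer of the subunits a, c, e, f, h, k, l and m forms the body of the complex. These 8 had a median of 0.38 in the fly data. Of them 5 passed as higher (62.5%, against 13.4% of all features) and 1 as lower (12.5%, against 23.7%). The counts were the same when any 1 array was left out and on receptor centring.

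The highest member of all was eIF3e, a subunit also known as Int6, with 0.90, 0.83 and 0.97 on replicates 3, 4 and 6. Its mean of 0.90 ± 0.07 (SD, n = 3; limma adjusted p = 5.27e-05) is a 1.86-fold difference and ranked 324 from the top among all features. On these arrays eIF3e lay above every other member. For eIF3m the ratios were 0.75, 0.44 and 0.64 on replicates 3, 4 and 6, with a mean of 0.61 ± 0.16 (adjusted p = 8.56e-04). Both subunits were above 0 on each array, and both were lowest on replicate 4.

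Another 3 subunits of the octamer lay close together. eIF3h, which carries an MPN domain, had 0.40, 0.39 and 0.42 on replicates 3, 4 and 6 (mean 0.40 ± 0.018, limma adjusted p = 0.00162). eIF3l had 0.50, 0.35 and 0.32 (mean 0.39 ± 0.10, limma adjusted p = 0.00318). The second MPN subunit, eIF3f1, had 0.39, 0.30 and 0.42 (mean 0.37 ± 0.06, limma adjusted p = 0.00309). The ranges of these subunits overlapped each other and stayed below that of eIF3e on every array.

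The scaffold subunit eIF3a, which holds the octamer together, went the other way. It stood at -0.48, -0.34 and -0.67 on replicates 3, 4 and 6, with a mean of -0.49 ± 0.17 (limma adjusted p = 0.00244). All its values lay below the lowest value of the other octamer subunits on any array. The remaining octamer members, eIF3c at 0.060 and eIF3k at 0.15, did not pass.

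In the module of b, g and i, eIF3i stood at 0.32, 0.16 and 0.55 on replicates 3, 4 and 6 (mean 0.35 ± 0.20, limma adjusted p = 0.0171), eIF3b at 0.15 and eIF3g1 at 0.011, the latter 2 not past the threshold. The call of eIF3i was not made without replicate 3 (limma adjusted p = 0.101), without replicate 6 (limma adjusted p = 0.0568) or on receptor centring (limma adjusted p = 0.0548). The peripheral subunit eIF3d1 and the loosely bound eIF3j both had means of -0.16 after rounding and did not pass, but on receptor centring both passed as lower (limma adjusted p = 0.0253 and 0.0117). Drosophila has extra copies of some subunits, and eIF3d2 at 0.095, eIF3f2 at 0.053 and eIF3g2 at 0.17 did not pass either. Thus eIF3f1 was called higher and its copy eIF3f2 was not, a difference that was not tested.

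**Figure D2:**
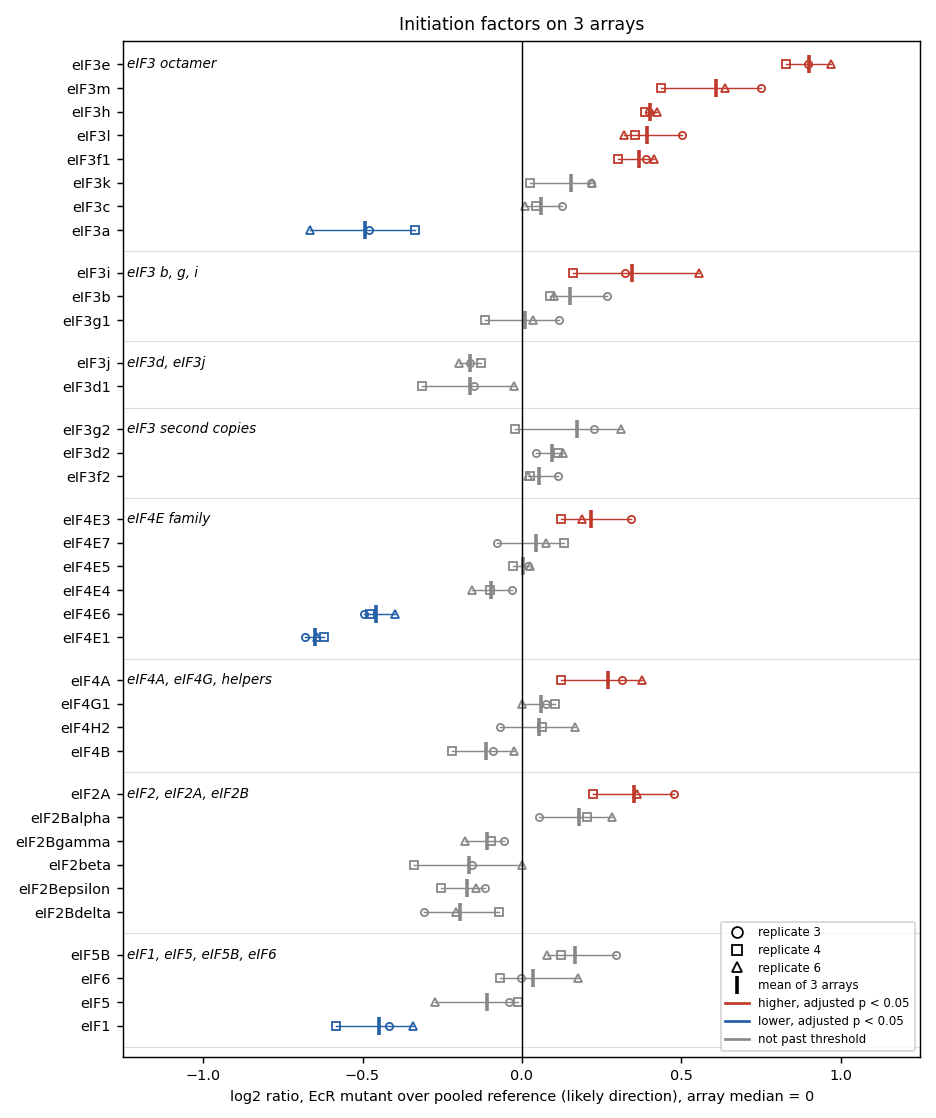
Log2 ratios (x axis, mutant over reference in the likely direction) of the 36 tested initiation factors, grouped by complex; circles, squares and triangles are replicates 3, 4 and 6 and the upright bar is their mean. Red and blue mark genes past the threshold, and eIF3e (mean 0.90) and eIF4E1 (mean -0.65) are the extremes.

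The cap-binding step gave the lowest initiation factor. eIF4E1, the main protein that binds the mRNA cap, was measured by 4 probes and stood at -0.68, -0.62 and -0.64 on replicates 3, 4 and 6. Its mean was -0.65 ± 0.03 (SD, n = 3; limma adjusted p = 1.78e-04), a 1.57-fold difference, and the means of its probes ranged from -0.72 to -0.60. The arrays lay close together for the average of the 4 probes, while single probes varied more. A probe with -0.97, -0.59 and -0.42 on replicates 3, 4 and 6 stood beside another with -0.50, -0.58 and -0.75. Every probe was below 0 on each array.

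Among the other cap-binding paralogs, eIF4E6 was lower, with -0.50, -0.48 and -0.40 on replicates 3, 4 and 6 (mean -0.46 ± 0.05, limma adjusted p = 0.00105). In contrast eIF4E3, which has a known role in the male germ line, stood at 0.34, 0.12 and 0.19 (mean 0.22 ± 0.11, limma adjusted p = 0.0417). This call was not made without replicate 3 (adjusted p = 0.258), without replicate 6 (adjusted p = 0.0732) or on receptor centring. eIF4E4 at -0.097, eIF4E5 at 0.0049 and eIF4E7 at 0.044 did not pass. Probe sequences were not used here, so hybridisation of a probe to transcripts of a paralog was not tested.

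The partners of eIF4E in eIF4F did not share its lower ratio. The helicase eIF4A stood at 0.31, 0.12 and 0.38 on replicates 3, 4 and 6, with a mean of 0.27 ± 0.13 (limma adjusted p = 0.0223). It was above 0 and above eIF4E1 on each array, though its call was not made without replicate 3 (adjusted p = 0.148), without replicate 6 (adjusted p = 0.0898) or on receptor centring. The scaffold eIF4G1 at 0.060 and the helicase cofactors eIF4B at -0.11 and eIF4H2 at 0.054 did not pass.

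Of eIF2, its exchange factor eIF2B and the separate protein eIF2A, only eIF2A was called. The alpha and gamma subunits of eIF2 and the beta subunit of eIF2B were not tested. The set is too small to be weighed against the 37.0% called among all features. eIF2beta, the tested subunit of eIF2, stood at -0.17 ± 0.17 and did not pass. The exchange factor eIF2B, which reloads eIF2 with GTP and is the target of its stress control, gave no call among 4 tested subunits: eIF2Balpha stood at 0.18, eIF2Bgamma at -0.11, eIF2Bepsilon at -0.17 and eIF2Bdelta at -0.20. On receptor centring eIF2beta and the gamma, delta and epsilon subunits of eIF2B passed as lower. eIF2A, a single protein that is no part of eIF2, was higher, with 0.48, 0.22 and 0.36 on replicates 3, 4 and 6 (mean 0.35 ± 0.13, limma adjusted p = 0.00711). Its call was not made without replicate 3 (limma adjusted p = 0.0763).

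Start site choice and subunit joining were represented by 4 genes. eIF1, which keeps scanning ribosomes from starting at wrong codons, was lower, with -0.42, -0.58 and -0.34 on replicates 3, 4 and 6 (mean -0.45 ± 0.12, limma adjusted p = 0.00232). All values lay below 0, and the call was made with each array left out. eIF5, which triggers GTP hydrolysis by eIF2, stood at -0.11, eIF5B, the GTPase of subunit joining, at 0.17, and eIF6, which keeps free large subunits apart, at 0.034, and none of the 3 passed. The median over all 36 initiation factors was 0.054, or -0.046 on receptor centring, with 9 calls higher, 4 lower and 23 genes not past the threshold. The share called, 36.1%, was near the 37.0% of all features. Higher calls made up 25.0%, against 13.4% of all features, and lower calls 11.1%, against 23.7%. Leaving out replicate 3, 4 or 6 gave 5, 10 or 6 calls higher, where 6.05%, 11.9% or 10.4% of all features were higher. On receptor centring 6 of the 36 were higher and 12 lower, where 7.38% of all features were higher and 32.2% lower.

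Of 3 tested genes of the elongation complex eEF1, 2 were called higher and 1 lower. Its genes eEF1alpha1 and eEF1beta were not tested. Over all 6 elongation and release factors 66.7% were called, against 37.0% of all features. eEF1alpha2, a copy of the GTPase that carries charged tRNAs to the ribosome, stood at 0.66, 0.53 and 0.69 on replicates 3, 4 and 6, with a mean of 0.63 ± 0.08 (SD, n = 3; limma adjusted p = 2.95e-04) and a fold of 1.54. eEF1gamma, of the complex that exchanges its nucleotide, had 0.43, 0.37 and 0.32 (mean 0.37 ± 0.05, limma adjusted p = 0.00277). Both were above 0 on each array and were called with each array left out.

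eEF1delta, an exchange subunit measured by 2 probes, was lower at -0.12, -0.28 and -0.26 on replicates 3, 4 and 6 (mean -0.22 ± 0.09, limma adjusted p = 0.0341). It was called on all arrays together but lost its call when any 1 array was left out (limma adjusted p = 0.0786, 0.0991 and 0.125 for replicates 3, 4 and 6). Nor was eEF1delta called on the values as deposited (limma adjusted p = 0.0816). eEF5, the hypusine-bearing protein formerly named eIF5A, had 0.34 on replicate 3 and -0.039 on both other arrays, with the largest SD of all members (0.22), and did not pass.

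Release factors gave the lowest value of the class. eRF1, which reads all stop codons, stood at -0.91, -0.74 and -0.94 on replicates 3, 4 and 6. Its mean of -0.86 ± 0.11 (SD, n = 3; limma adjusted p = 8.91e-05) is a 1.82-fold difference and ranked 693 from the bottom among all features. Its partner, the GTPase eRF3, had -0.12, -0.14 and -0.31 (mean -0.19 ± 0.10, limma adjusted p = 0.0615). Both were below 0 on each array, eRF1 lay further from 0 on each, and eRF3 did not pass. It did pass as lower after scaling (limma adjusted p = 0.0486), quantile normalization (limma adjusted p = 0.0447) and receptor centring (limma adjusted p = 0.0131).

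**Figure D3:**
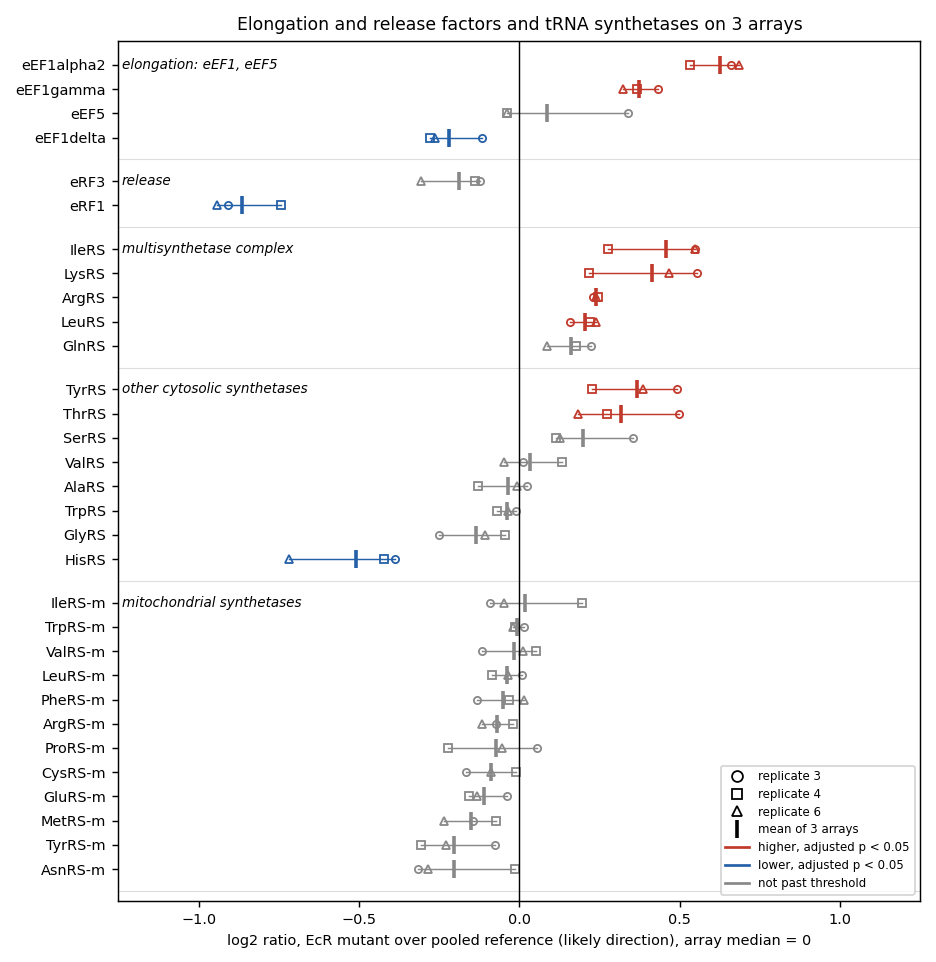
Log2 ratios (x axis) of the 6 elongation and release factors, 13 cytosolic and 12 mitochondrial synthetases; symbols are the 3 arrays and the upright bar is their mean, with red and blue for genes past the threshold. Cytosolic enzymes spread from HisRS (-0.51) to IleRS (0.46), while all mitochondrial enzymes lie between -0.21 and 0.018.

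Most cytosolic synthetases past the threshold were higher, while 1 was lower. The median over 13 tested enzymes was 0.20. Of these 6 passed as higher (46.2%, against 13.4% of all features), 1 as lower (7.69%, against 23.7%), and 6 missed the threshold. IleRS, for isoleucine, stood at 0.55, 0.28 and 0.55 on replicates 3, 4 and 6 (mean 0.46 ± 0.16, limma adjusted p = 0.00317). LysRS, for lysine, had 0.55, 0.22 and 0.47 (mean 0.41 ± 0.18, limma adjusted p = 0.00626). Both lay above 0 throughout and were lowest on replicate 4.

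TyrRS stood at 0.49, 0.23 and 0.38 on replicates 3, 4 and 6 (mean 0.37 ± 0.13, limma adjusted p = 0.0063), and ThrRS at 0.50, 0.27 and 0.18 (mean 0.32 ± 0.16, limma adjusted p = 0.0163). ArgRS hardly varied, with 0.23, 0.24 and 0.24 (mean 0.24 ± 0.0079, limma adjusted p = 0.0168), and LeuRS had 0.16, 0.22 and 0.24 (mean 0.21 ± 0.04, limma adjusted p = 0.0322). These 4 enzymes were above 0 on each array, with differences of at most 1.29-fold. Without replicate 3, IleRS was the 1 synthetase still called higher. The adjusted p then was 0.0694 for LysRS, 0.0702 for TyrRS, 0.127 for ThrRS, 0.104 for ArgRS and 0.117 for LeuRS, while the means, from 0.23 to 0.34, stayed above 0. The calls of LeuRS without replicate 4 (limma adjusted p = 0.0736) and of LeuRS and ArgRS without replicate 6 (limma adjusted p = 0.134 and 0.0558) were not made either. On receptor centring IleRS, LysRS and TyrRS were called higher.

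HisRS was the exception. It stood at -0.39, -0.42 and -0.72 on replicates 3, 4 and 6, with a mean of -0.51 ± 0.18 (SD, n = 3; limma adjusted p = 0.00262), and was called with each array left out. Every array had HisRS lowest of all 25 tested synthetases. The cytosolic enzymes that did not pass were SerRS at 0.20, GlnRS at 0.16, ValRS at 0.032, AlaRS at -0.037, TrpRS at -0.039 and GlyRS at -0.13.

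In animals several synthetases share a large multisynthetase complex built on the scaffold proteins AIMP1, AIMP2 and AIMP3. Its tested enzymes ArgRS, GlnRS, IleRS, LeuRS and LysRS all stood above 0 on each array, with a median of 0.24. Of these 5, 4 were called higher (80.0%, against 13.4% of all features). GluProRS, AspRS and MetRS were not tested, and GluProRS stood at 0.060 and -0.18 on replicates 3 and 4. The 8 other tested cytosolic enzymes had a median of -0.0025, with 2 calls higher (25.0%) and 1 lower (12.5%, against 23.7% of all features). The difference between these sets was not tested. The higher calls inside and outside the complex were 1 and 0 without replicate 3, 2 and 2 without replicate 6, and 2 and 1 on receptor centring. The scaffolds AIMP1 at -0.030 and AIMP2 at 0.16 did not pass.

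None of the 12 mitochondrial synthetases passed the limma test, which called 37.0% of all features. The class had 0 higher and 0 lower and a median of -0.072. At an unadjusted p under 0.05 there were 3, namely AsnRS-m, TyrRS-m and MetRS-m. The plain one-sample test with adjustment called 4 of all 13026 features and no synthetase, so its count of 0 says nothing about this class. Of the means, 11 lay below 0, from AsnRS-m at -0.21 and TyrRS-m at -0.20 through MetRS-m at -0.15, GluRS-m at -0.11, CysRS-m at -0.089, ProRS-m at -0.074, ArgRS-m at -0.070, PheRS-m at -0.051, LeuRS-m at -0.038 and ValRS-m at -0.018 to TrpRS-m at -0.0068. IleRS-m stood at 0.018. Their 95% intervals reached from -0.389 at the lowest to 0.196 at the highest, so larger shifts were outside the interval of every gene. TyrRS-m, with -0.077, -0.31 and -0.23 on replicates 3, 4 and 6, came nearest to the threshold (limma adjusted p = 0.054), and it passed after scaling (limma adjusted p = 0.0487) or quantile normalization (limma adjusted p = 0.0499). AsnRS-m passed without replicate 4 (limma adjusted p = 0.0175). On receptor centring AsnRS-m, TyrRS-m, MetRS-m and GluRS-m were called lower.

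For 6 amino acids both the cytosolic and the mitochondrial enzyme were tested. The cytosolic enzyme had the higher ratio on each array for tyrosine, by 0.57, 0.53 and 0.61 on replicates 3, 4 and 6. The same held for isoleucine, by 0.64, 0.081 and 0.60, for arginine, by 0.30, 0.26 and 0.35, and for leucine, by 0.15, 0.30 and 0.28. For valine the order changed between arrays (0.13, 0.081 and -0.058), and for tryptophan the mitochondrial enzyme was higher by a small margin (-0.025, -0.054 and -0.018). With 3 arrays an exact sign-flip permutation test, two-sided, cannot give a p below 0.25, which 5 of the 6 pairs reached (0.3 after adjustment over the pairs). Over the classes, the cytosolic median exceeded the mitochondrial one by 0.31, 0.20 and 0.20 on the same arrays, a difference that was not tested.

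Other nuclear genes of mitochondrial translation did give calls. The 9 tested mitochondrial translation factors had a median of -0.22. Of these 5 passed as lower (55.6%, against 23.7% of all features) and 3 as higher (33.3%, against 13.4%). The elongation factor mEFTu1 stood at -0.53, -0.38 and -0.61 on replicates 3, 4 and 6 (mean -0.50 ± 0.12, limma adjusted p = 0.00121), and its exchange factor mEFTs at -0.54, -0.28 and -0.54 (mean -0.46 ± 0.15, limma adjusted p = 0.00288). Both means lay below those of all 12 mitochondrial synthetases, and both genes were called with each array left out.

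The translocation factor mEFG1 at -0.26, the initiation factor mIF3 at -0.26 and the recycling factor mRRF1 at -0.22 were also lower, and mEFTu2 at 0.22, waw, related to the bacterial factor LepA, at 0.21 and the release factor mRF1 at 0.18 were higher. None of these 6 was called without replicate 3 (adjusted p between 0.112 for mIF3 and 0.29 for mEFTu2), where 2 factors were lower and 0 higher. mRF1 was not called without replicate 4 either (limma adjusted p = 0.119), nor was mRRF1 on the values as deposited (limma adjusted p = 0.0842). Without replicate 6 the counts were 3 lower and 0 higher, and on receptor centring 6 lower and 0 higher. mIF2 at -0.11 did not pass. Of 59 mitochondrial ribosomal proteins 36 were lower (61.0%, against 23.7% of all features) and 1 was higher. Their median was -0.23, and 17 were lower without replicate 3. Of 36 cytosolic ribosomal proteins 3 were lower and 6 higher (25.0% called, against 37.0% of all features), with a median of 0.095. The mitochondrial GatA and GatB, which make glutaminyl-tRNA by amidation, stood at 0.16 and -0.10 and did not pass.

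**Figure D4:**
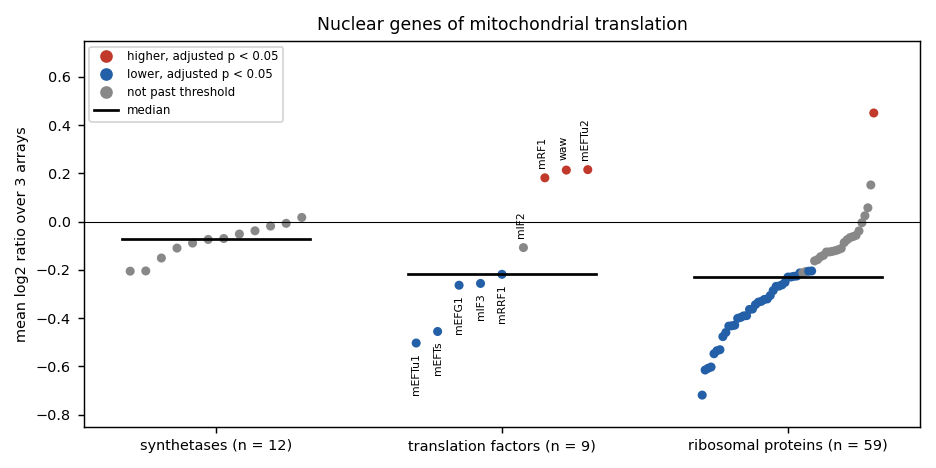
Mean log2 ratio over 3 arrays (y axis) of each tested nuclear gene for mitochondrial synthetases, translation factors and ribosomal proteins, sorted within each set, with the median as a black line. The synthetases lie within 0.21 of 0 and none is called. Of the factors 5 of 9 and of the ribosomal proteins 36 of 59 are called lower, against 23.7% of all features.

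Among regulators of initiation, NAT1 alone lay further from 0 than every tested initiation factor. Of 9 genes of cap-binding regulation and poly(A) binding, 2 passed as higher and 3 as lower (55.6% called, against 37.0% of all features). NAT1, the fly relative of mammalian eIF4G2, stood at -1.22, -0.79 and -1.14 on replicates 3, 4 and 6 (mean -1.05 ± 0.23, limma adjusted p = 1.57e-04). S6k, a kinase downstream of TOR, had -0.58, -0.72 and -0.97 (mean -0.76 ± 0.20, limma adjusted p = 4.76e-04). Both were below 0 throughout.

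The repressor helicase me31B stood at -0.54 ± 0.06 (limma adjusted p = 5.27e-04), Paip2, an inhibitor of poly(A)-binding protein, at 0.58 ± 0.14 (limma adjusted p = 8.41e-04) and larp, whose human relative binds mRNAs of the translation machinery, at 0.42 ± 0.17 (limma adjusted p = 0.00572). These calls were made with each array left out. The poly(A)-binding protein gene pAbp at 0.18 did not pass, nor did cup at -0.12, rin at 0.12 and mxt at -0.024.

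In the control of eIF2 by phosphorylation, Gcn2, the kinase that senses uncharged tRNA, stood at 0.45, 0.39 and 0.21 on replicates 3, 4 and 6 (mean 0.35 ± 0.13, limma adjusted p = 0.00759). PPP1R15, which directs the opposing phosphatase, had -0.54, -0.40 and -0.69 (mean -0.54 ± 0.14, limma adjusted p = 0.00116). Gcn2 was above 0 and PPP1R15 below 0 on each array, though the call of Gcn2 was not made without replicate 3 (limma adjusted p = 0.0814). The second kinase gene PEK at -0.082, crc, the fly ATF4, at -0.084 and Atf3 at 0.16 did not pass. Thus 1 of 5 genes was higher and 1 lower (40.0% called, near the 37.0% of all features).

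Modification of factors and tRNAs gave mixed values. Dhps, which starts the hypusine modification of eEF5, stood at 0.26 ± 0.09 (limma adjusted p = 0.018) and Dph2, of the diphthamide pathway that modifies eEF2, at 0.32 ± 0.12 (limma adjusted p = 0.0102), while Dph4 stood at -0.26 ± 0.16 (limma adjusted p = 0.0339) and the other 3 tested of that list did not pass. None of these calls was made without replicate 3 (adjusted p = 0.142, 0.0997 and 0.228). Without replicate 6 those of Dhps (adjusted p = 0.055) and Dph4 (adjusted p = 0.0594) were not made, nor was that of Dhps on receptor centring (adjusted p = 0.0877) or that of Dph4 on the values as deposited (adjusted p = 0.0676). Of 12 genes of tRNA modification and processing, 3 were lower (25.0%, near the 23.7% of all features) and 9 did not pass, and 1 was lower without replicate 3 and without replicate 6. Elp2, a subunit of Elongator, which modifies the wobble base of tRNAs, stood at -0.65, -0.31 and -0.61 on replicates 3, 4 and 6 (mean -0.52 ± 0.19, limma adjusted p = 0.00249). Elp4 at -0.20 and Trm7-34 at -0.25 were called too, but not without replicate 3 (adjusted p = 0.212 and 0.157) or without replicate 6 (adjusted p = 0.187 and 0.0761), and Elp4 not on the values as deposited (adjusted p = 0.112). The rescue factors pelo at -0.14 and HBS1 at 0.11, which free stalled ribosomes, did not pass.

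Across the 67 genes, which are not independent replicates and share the reference, Pearson's r was 0.877 between replicates 3 and 4, 0.917 between replicates 3 and 6 and 0.879 between replicates 4 and 6. Spearman's rho was 0.808, 0.874 and 0.838 for the same pairs. Over all features Pearson's r was higher for each pair, at 0.902, 0.939 and 0.897. Means of all features spanned -3.75 to 4.18 and those of the members -0.86 to 0.90. Since r depends on this spread, the lower r does not show that the arrays differed more for the members. Of the members 77.6% kept 1 sign over the arrays, beside 67.2% of all features. For the 6 members with more than 1 probe, the 3-array means of the probes of a gene differed by 0.123 at most. On single arrays probes differed more, with those of eIF4E1 from -0.97 to -0.50 on replicate 3.

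Markers of other tissues and of midgut cell types gave calls as well. Among all features 13.4% were called higher and 23.7% lower. Of 4 fat body markers 3 were lower, from -1.89 for fat-spondin to -0.076 for apolpp, with array medians from -0.92 to -0.36, and of 4 progenitor markers 2 were lower and 1 higher. Of 4 hemocyte markers 1 was higher and 1 lower, and the counts were 1 higher of 3 for visceral muscle, 1 lower of 3 for Malpighian tubule and 0 of 1 for salivary gland. Of 4 enterocyte markers 3 were higher, led by mag at 3.12, while nub was below 0 on each array (mean -0.13) and did not pass. Without replicate 3 no progenitor, hemocyte or visceral muscle marker was called, and the fat body calls were 2, with Fbp2 not past the threshold (limma adjusted p = 0.139). Without replicate 6 no hemocyte marker was called. On receptor centring the progenitor markers gave 0 higher and 3 lower. Their part in the values of the translation genes was not tested.

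**Figure D5:**
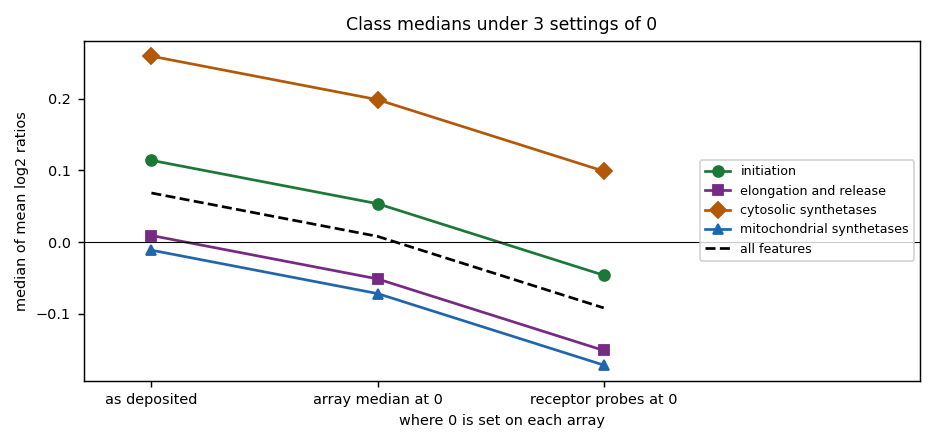
Median of the mean log2 ratios (y axis) of the 4 classes and of all features (dashed) with 0 set as deposited, at each array's median and at its chemosensory receptor probes. Cytosolic synthetases stay above 0 (0.26, 0.20 and 0.099), mitochondrial synthetases stay below it (-0.011, -0.072 and -0.17), and the other 2 classes cross 0.

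Where 0 is set decided the sign of some class medians. As the plot of class medians shows, the median of the cytosolic synthetases was 0.26 on the values as deposited, 0.20 with array medians at 0 and 0.099 with receptor probes at 0. For the mitochondrial synthetases it was -0.011, -0.072 and -0.17. The initiation factors went from 0.11 through 0.054 to -0.046, and the elongation and release factors from 0.0093 through -0.051 to -0.15. The median of all features moved alongside, from 0.069 through 0.0081 to -0.092, since these settings differ by 1 constant per array and shift all genes alike. Without replicate 3 the median of the elongation and release factors was -0.13 and that of the mitochondrial synthetases -0.064, the reverse of their order on all arrays.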

How the data were processed

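The authors deposited a log2 ratio for each of 20000 probes on each array. The sources used here name no background correction, spot filter or scanner software. Per the labels, RNA was amplified by in vitro transcription, with the mutant read at 635 nm and the reference at 532 nm. For values under 1.5, the ratios fell on steps of 0.001 for 100% of values after 1 constant per array was added, which settles the log base. No intensities or flags were used.

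After subtraction of array medians, probes with 1 gene symbol were averaged per gene. The 13026 features with 3 values were tested against 0 (two-sided) in limma 3.58.1 under R 4.3.3, by lmFit and eBayes with 6.89 degrees of freedom and Benjamini-Hochberg adjustment over all of them. As the reference is 1 control sample, wild-type spread does not enter the test. In simulated data with 13026 features, 50 were changed at each log2 size of 0.25, 0.5, 1 and 2. All others had no change, and the noise was independent. There 28% of changes of 0.25 and 100% of those of 0.5 or more were recovered, and 7.87% of calls were false. In the real data 37.0% of features were called, so these rates do not carry over to them. Members, lists, tests and alternatives were chosen with earlier results of these data known. In each class up to 8 called members with the largest absolute mean, the called members opposite to the majority, all subunits and paralogs and all synthetase pairs are named, and from each of 8 further translation lists up to 4 called genes. Further uncalled genes of these lists, and mRF1, waw, mEFTu2, mRRF1 and larp among called ones, were named after their values were seen. Names follow the gene table of Release 6 plus ISO1 MT. Python 3.11.15 with pandas 2.3.3, scipy 1.17.1 and matplotlib 3.10.9 did the rest.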

Additional observations from a re-analysis of the deposited data

How the results depend on the processing

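No member called in the first place changed sign under any of the 14 alternatives. This was partly set beforehand, since the smallest called mean was 0.21 (LeuRS) and several alternatives reuse the same means. The balance of calls did move, from 17 members higher and 7 lower at first to 11 and 21 on receptor centring. Of the 24 calls, 14 were also made under each alternative other than the plain one-sample test and the 1.5-fold limit. Features called numbered 4824 at first, 3119 at an adjusted p under 0.01, 1772 with the 1.5-fold limit and 4 with the plain one-sample test, in which 0 members were higher and 0 lower (19 at an unadjusted p under 0.05), with 0 lower in each class. Members called higher numbered 11 on receptor centring, 11 at an adjusted p under 0.01 and 3 with the 1.5-fold limit. Members called lower numbered 21 on receptor centring and 2 with the 1.5-fold limit. Receptor centring gave 961 of all features as higher and 4197 as lower (81.4% of calls, against 63.9% at first and 47.3% as deposited). It gave 12 initiation factors, 2 cytosolic and 4 mitochondrial synthetases as lower, and scaling or quantile normalization gave 1 mitochondrial synthetase. With the 1.5-fold limit 1 initiation factor, 1 elongation or release factor and 0 cytosolic synthetases were lower, and 1 elongation or release factor was lower as deposited and at 0.01. The members' median was 0.078 as deposited and -0.082 on receptor centring. Leaving out 1 replicate gave 2784 to 4625 features called, 8 to 17 members higher, 6 to 8 lower, 4 to 5 initiation factors lower, 1 elongation or release factor lower, 1 cytosolic synthetase lower, 0 to 1 mitochondrial synthetases lower, and a median from -0.00095 to 0.023, below 0 without replicate 6. Fewer arrays leave a weaker test, and the causes of the other shifts were not tested. Centring on the probes measured by every array was added after seeing the data and changed no member's call. No paired analysis was possible because the series has 1 group. Signal over background is unknown.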
